A study of Mus musculus with 8 samples.

Results

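The genes described here are the 10 direct neighbours of Stab1 on mouse chromosome 14: Itih4, Itih3, Itih1, Nek4, Spcs1, Glt8d1, Gnl3, Pbrm1, Nt5dc2 and Nisch. They were chosen by their position beside the targeted gene and found by symbol, 1 row each, among 19348 genes of the deposited table. RNA from whole liver of 5-week-old mice was sequenced in 5 libraries labelled Stab1 knock-out and 3 labelled wild-type. The labels name no strain, sex, targeting construct or treatment, and no label ties a library to an animal. The tests therefore rest on library-to-library spread alone, part of which may be technical. The libraries are called knockout libraries 1 to 5 and wild-type libraries 1 to 3.

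The neighbourhood mixes genes of unlike function. At the Itih4 end stand 3 genes for heavy chains of the inter-alpha-inhibitor family, plasma proteins made by hepatocytes. Heavy chains 1 and 3 are carried on bikunin, the product of Ambp, through a chondroitin sulfate chain and are passed on to hyaluronan in the extracellular matrix, whereas heavy chain 4 circulates without bikunin and is known as an acute-phase protein. The other 7 genes encode proteins of general cell function: a kinase, a signal peptidase subunit, a glycosyltransferase, a nucleolar GTPase, a chromatin-remodelling subunit, a nucleotidase-like protein and an integrin-binding protein. Adjacent genes are of use in a knockout because a targeted allele can carry altered or co-inherited DNA on either side of the gene.

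In the RefSeq gene order of GRCm38.p6, Stab1 lies between Nt5dc2 and Nisch, and the only gene of the table within the block that is not described as one of the 10 is Smim4, between Pbrm1 and Nt5dc2. The build used for counting is not given in the sources used here, so this order is RefSeq's and not the authors'. In that annotation Stab1 and Nt5dc2 run towards each other and overlap at their 3′ ends, Gnl3 and Glt8d1 do the same, Glt8d1 starts inside Spcs1 on the opposite strand, and Smim4 overlaps Pbrm1. Whether the libraries keep strand is not given in the sources used here, so reads in those overlaps cannot be assigned to 1 gene of a pair with certainty.

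Gnl3 and Pbrm1 are read away from each other from nearly the same point. The 30 bases that hold both annotated starts (GRCm38.p6, chr14:31019120-31019149, + strand, RefSeq) are shown because the levels of this pair differed in pattern across the libraries, as given further on. Capitals run from the first base of Gnl3, read leftwards, to the first base of Pbrm1, read rightwards.
Gnl3 and Pbrm1: gcctggcggccACAGGTTGgatttacggca

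The start regions of the 10 genes differed in the bases they held. All 10 matched an entry in the RefSeq promoter table, with 12 windows of 300 bases (250 before and 50 after each start). The windows of Itih1, Itih3 and Itih4 held 2 to 5 CG pairs, and the 9 windows of the other 7 genes held 7 to 44, against a median of 7 over 32851 windows of the genome. The motif TATAA, searched on both strands (as TATAA and as TTATA), stood in the windows of Itih3 and Itih4, in none of the other 10 windows of these genes, and in 24.9% of all windows. The match began at -1 from the annotated start in Itih4 and at 3 in Itih3, so on or just past the start. Such a match describes letters and not a site in use.

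The next sequences show 80 bases before and 20 after the annotated starts of the heavy chain genes, the most abundant of the 10 in liver, with TATAA in capitals. They are Itih4 (chr14:30886396-30886495, + strand), Itih3 (chr14:30923568-30923667, - strand) and Itih1 (chr14:30943270-30943369, - strand), each read 5′ to 3′ on its own strand from RefSeq, GRCm38.p6.
Itih4: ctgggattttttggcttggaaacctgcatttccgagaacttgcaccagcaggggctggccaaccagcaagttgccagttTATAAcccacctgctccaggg
Itih3: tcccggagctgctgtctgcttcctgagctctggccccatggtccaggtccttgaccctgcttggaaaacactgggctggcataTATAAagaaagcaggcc
Itih1: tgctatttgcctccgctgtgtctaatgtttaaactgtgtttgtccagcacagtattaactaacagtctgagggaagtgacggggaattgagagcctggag

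For contrast, 120 bases before the starts of the genes on either side of Stab1 are shown with each CG pair in capitals. Nisch (chr14:31206827-31206946, - strand) has 7 such pairs and Nt5dc2 (chr14:31130969-31131088, + strand) has 16.
Nisch: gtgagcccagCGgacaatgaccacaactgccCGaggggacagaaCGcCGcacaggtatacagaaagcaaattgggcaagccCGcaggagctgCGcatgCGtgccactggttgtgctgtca
Nt5dc2: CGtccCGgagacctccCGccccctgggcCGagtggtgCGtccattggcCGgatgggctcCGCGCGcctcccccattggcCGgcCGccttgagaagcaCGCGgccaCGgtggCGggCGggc

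The libraries held 4.85 to 10.8 M counted reads. The fewest were in knockout library 1, which differed from the rest in other ways too. It had 3 reads of Xist against 4445 to 8222 in the other 7 libraries, and 320 reads of the Y-linked Ddx3y against 0 to 4. By these reads it was the only male library, although the labels give no sex. The fitted change of each neighbour is therefore given with and without knockout library 1. Stab1 itself, the check of the labels, was at 0.153 ± 0.0496 RPKM (SD, n = 5) in knockout and 6.34 ± 0.569 RPKM (SD, n = 3) in wild-type libraries, where RPKM is the authors' read count scaled to gene length in kilobases and to the library total. Knockout over wild type gave -5.38 on the log2 scale (SE 0.22, edgeR adjusted p = 3.14e-06), and an exact two-sided permutation test of mean log2 CPM (reads scaled to the library total times its TMM factor) over the 56 divisions of the libraries gave p = 0.0179, the smallest the design allows. The hepatocyte, sinusoidal endothelial and Kupffer cell markers listed for the liver were all detected.

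No neighbour was called as different between knockout and wild-type libraries by the test used. All 10 passed the filter on low counts, and edgeR's quasi-likelihood test called 0 of 10 at an adjusted p below 0.05, where 0.227% of the 12338 tested genes were called. At so low a share, 0 calls among 10 genes does not show that they were unchanged. The 95% intervals reached from 0.50-fold to 1.11-fold for Nek4 and from 0.65-fold to 1.76-fold for Gnl3. At an unadjusted p below 0.05 edgeR also counted 0 of 10 (13.6% of all tested genes), and the DESeq2 Wald test called 0 of 10 (1.11% of all tested genes), with 0 at an unadjusted p below 0.05. Fitted log2 fold changes ran from -0.43 (Nek4) to 0.33 (Nt5dc2), with 4 positive and 6 negative and a median of -0.13, beside -0.0065 over all tested genes. In size they had a median of 0.17, beside 0.23 over all tested genes. The knockout and wild-type ranges overlapped in all 10, in RPKM and in CPM, whereas 6.65% of tested genes had CPM ranges that did not overlap.

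**Figure D1:**
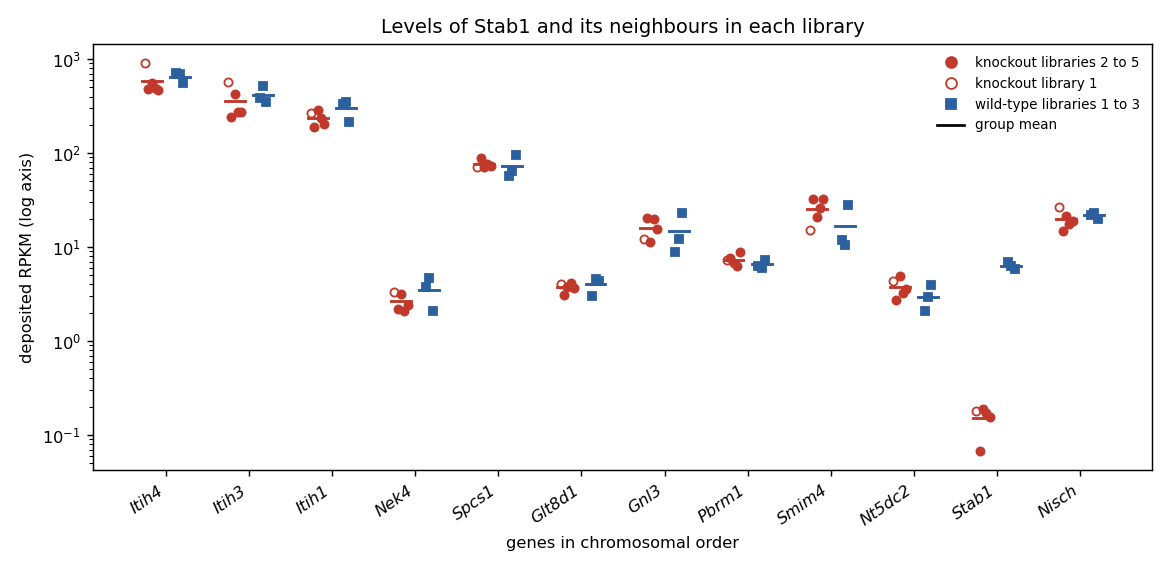
Deposited RPKM (log axis) of Stab1, the 10 neighbours and Smim4 in each library, in chromosomal order; points are libraries, short lines are group means, and the open circle is knockout library 1. Knockout libraries hold 0.0677 to 0.191 RPKM of Stab1 and wild-type libraries 5.85 to 6.97 RPKM, while the groups overlap at every neighbour.

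Nisch stands upstream of Stab1 and is read in the same direction, so that its 3′ end faces the Stab1 start. It encodes nischarin, a cytosolic protein that binds the integrin alpha5 chain and restrains cell migration. Nisch was at 26.9, 14.9, 21.3, 17.8 and 19.1 RPKM in knockout libraries 1 to 5 and at 22.0, 23.1 and 20.02 RPKM in wild-type libraries 1 to 3. The wild-type values lay inside the knockout range, whose bottom was knockout library 2 and whose top was knockout library 1. Knockout libraries 2 to 5 reached no higher than 21.3 RPKM, so that wild-type libraries 1 and 2 lay above them. Its log2 fold change was -0.14 (SE 0.17, edgeR adjusted p = 0.702), with a 95% interval from a 0.70-fold to a 1.18-fold level. It was -0.25 (edgeR adjusted p = 0.308) without knockout library 1 and -0.056 without knockout library 2, the ends of its range with 1 library left out.

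Nt5dc2, whose 3′ end meets that of Stab1, encodes a member of a family with a nucleotidase-like domain. It was low in liver, with 30 to 75 reads per library. Its levels were 4.31, 2.72, 4.98, 3.26 and 3.58 RPKM in knockout libraries 1 to 5 and 2.09, 2.91 and 3.92 RPKM in wild-type libraries 1 to 3. The lowest library was wild-type library 1 and the highest was knockout library 3. Knockout library 2, with the fewest Stab1 reads, lay below wild-type libraries 2 and 3. A log2 fold change of 0.33 was fitted (SE 0.26, edgeR adjusted p = 0.562). Its 95% interval ran from -0.26 to 0.91, so at this depth levels from 0.84-fold to 1.88-fold lay within it. The value was 0.30 without knockout library 1 and, at the ends of its range with 1 library left out, 0.13 (wild-type library 1 omitted) and 0.58 (wild-type library 3 omitted).

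Pbrm1 encodes polybromo-1, the bromodomain subunit that defines the PBAF form of the SWI/SNF chromatin remodeller. It was among the steadiest of the 10, at 7.20, 7.56, 6.73, 6.31 and 8.80 RPKM in knockout libraries 1 to 5 and 6.34, 6.04 and 7.25 RPKM in wild-type libraries 1 to 3. Its highest library was 1.46 times its lowest, the smallest such ratio among the 10. Knockout over wild type gave 0.15 on the log2 scale (SE 0.15, edgeR adjusted p = 0.644), with a 95% interval of -0.19 to 0.50. Without knockout library 1 this was 0.17, and other single omissions took it from 0.066 (knockout library 5) to 0.24 (wild-type library 3).

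Gnl3 encodes nucleostemin, a nucleolar GTPase of ribosome production, and starts beside Pbrm1 as printed above. Its levels were 12.1, 20.2, 11.4, 19.8 and 15.4 RPKM in knockout libraries 1 to 5 and 8.82, 12.2 and 23.1 RPKM in wild-type libraries 1 to 3. Unlike Pbrm1 it varied widely inside each group, and both its lowest and its highest library were wild type, libraries 1 and 3, a ratio of 2.62, the largest among the 10. The ratio of Gnl3 to Pbrm1 RPKM within a library ran from 1.39 in wild-type library 1 to 3.19 in wild-type library 3, with the 5 knockout libraries at 1.68 to 3.14. The log2 fold change of Gnl3 was 0.10 (SE 0.32, edgeR adjusted p = 0.891), and its 95% interval of -0.61 to 0.81 was the widest among the 10. Its direction rested on single libraries: Gnl3 was at 0.19 without knockout library 1, at -0.16 when wild-type library 1 was omitted and at 0.59 when wild-type library 3 was.

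Spcs1 and Glt8d1 form the other pair that starts close together. Spcs1 encodes a small subunit of the signal peptidase complex, which cuts signal peptides from proteins entering the endoplasmic reticulum. It was at 70.9, 88.5, 70.7, 76.6 and 73.2 RPKM in knockout libraries 1 to 5 and 57.1, 64.9 and 95.3 RPKM in wild-type libraries 1 to 3. As with Gnl3, the extremes were wild-type libraries 1 and 3, and all knockout values lay between them (log2 fold change 0.061, SE 0.19, edgeR adjusted p = 0.887). The same omissions moved Spcs1 to 0.096, -0.084 and 0.32.

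Glt8d1 encodes a Golgi membrane protein of a glycosyltransferase family. It was at 4.07, 3.09, 3.76, 4.10 and 3.65 RPKM in knockout libraries 1 to 5 and 3.02, 4.63 and 4.37 RPKM in wild-type libraries 1 to 3. The wild-type values spanned the knockout values (log2 fold change -0.11, SE 0.18, edgeR adjusted p = 0.770). Omitting knockout library 1 gave -0.13, and the range over single omissions ran from -0.28 (wild-type library 1) to -0.013 (wild-type library 2). Per length, Glt8d1 stood at 0.0350 to 0.0712 of the Spcs1 level within a library.

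Nek4, a kinase related to the fungal mitotic kinase NIMA, had the lowest fitted log2 fold change of the 10. Its mean level over all 8 libraries was also the lowest, although within the wild type that of Nt5dc2 was lower (2.97 against 3.51 RPKM). It was at 3.35, 2.19, 3.19, 2.07 and 2.43 RPKM in knockout libraries 1 to 5 and 3.77, 4.64 and 2.11 RPKM in wild-type libraries 1 to 3. Wild-type libraries 1 and 2 lay above every knockout library, but wild-type library 3 lay below all but knockout library 4. Fitted over all libraries, the log2 fold change was -0.43 (SE 0.26, edgeR adjusted p = 0.453), with a 95% interval from a 0.50-fold to a 1.11-fold level, based on 44 to 136 reads per library. Omitting knockout library 1 gave -0.50 (edgeR adjusted p = 0.262), and the wild-type libraries moved the value most, to -0.19 without wild-type library 2 and to -0.68 without wild-type library 3.

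The heavy chain genes were the most abundant of the 10. Itih4 was at 901, 480.4, 552, 493 and 464 RPKM in knockout libraries 1 to 5 and 707, 686 and 558 RPKM in wild-type libraries 1 to 3. Knockout library 1 was far above all other libraries, and the other 4 knockout libraries lay below all 3 wild-type libraries, although the highest of them was close to wild-type library 3. With all libraries the log2 fold change was -0.19 (SE 0.21, edgeR adjusted p = 0.674). Without knockout library 1 it was -0.38 (SE 0.14, unadjusted p = 0.0177, edgeR adjusted p = 0.124), not called either. In that comparison 0.928% of tested genes were called, 25.5% had an unadjusted p below 0.05, and 18.2% of genes had no overlap between knockout libraries 2 to 5 and the wild type in CPM, among them 8.82% with lower values in the knockout. Over the 10 neighbours edgeR and DESeq2 each called 0 without knockout library 1, with 2 each at an unadjusted p below 0.05, and DESeq2 called 8.82% of all tested genes.

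Itih3 had the same top library. It was at 566, 239, 424, 273 and 273 RPKM in knockout libraries 1 to 5 and 389, 518 and 354 RPKM in wild-type libraries 1 to 3. Knockout libraries 2, 4 and 5 lay below the wild type, and knockout libraries 1 and 3 did not. Its log2 fold change was -0.26 (SE 0.27, edgeR adjusted p = 0.648), and without knockout library 1 it was -0.47 (SE 0.21, unadjusted p = 0.0449, edgeR adjusted p = 0.188). Itih3 and Itih4 were the 2 of the 10 with an unadjusted p below 0.05 in that comparison.

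Itih1 was at 269.6, 187, 285, 236 and 203 RPKM in knockout libraries 1 to 5 and 334, 346 and 216 RPKM in wild-type libraries 1 to 3. Wild-type libraries 1 and 2 were above every knockout library, and wild-type library 3 lay within the knockout range. Knockout library 1 did not stand out for this gene. The log2 fold change was -0.35 (SE 0.19, edgeR adjusted p = 0.419), and its 95% interval ran from a 0.58-fold to a 1.06-fold level. Itih1 was at -0.39 (edgeR adjusted p = 0.236) without knockout library 1 and ranged over single omissions from -0.53 (wild-type library 3) to -0.25 (wild-type library 2). The omission that brought the value nearest to 0 was wild-type library 2 for Itih3 (-0.10) and wild-type library 1 for Itih4 (-0.12).

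Knockout library 1 also had the highest level of most of the listed acute-phase genes, a class that the liver raises in inflammation. Saa1, serum amyloid A1, was at 5109 RPKM there against 26.2 to 37.3 RPKM in the other 7 libraries, and Saa2 was at 4082 against 11.01 to 27.0 RPKM. Orm2, an orosomucoid, was at 223 against 8.53 to 18.4 RPKM, and Lcn2, lipocalin-2, at 107 against 7.34 to 14.7 RPKM. Hamp, hepcidin, and Crp, C-reactive protein, went the other way, with knockout library 1 below every other library (379 against 492 to 1722 RPKM and 178 against 244 to 310 RPKM). Knockout library 1 was the highest library for 17 of 24 acute-phase genes, for 22.5% of tested genes, and for 3 of the 10 neighbours, Itih4, Itih3 and Nisch. By its Xist and Ddx3y reads knockout library 1 was also the only male library. The part of either difference in the levels of Itih4 and Itih3 was not tested, and the 2 cannot be told apart in 1 library.

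Genes that work with the heavy chains but lie elsewhere in the genome gave a reference. Itih2, on another chromosome, encodes heavy chain 2, and was at 339.8, 251, 424, 342 and 275 RPKM in knockout libraries 1 to 5 and 454, 492 and 401 RPKM in wild-type libraries 1 to 3. Knockout over wild type gave -0.47 on the log2 scale (SE 0.18, edgeR adjusted p = 0.334), beside -0.19, -0.26 and -0.35 for Itih4, Itih3 and Itih1, and Itih2 was not called either. Ambp was at 2312 RPKM in knockout library 1, 1309 to 1678 RPKM in knockout libraries 2 to 5 and 1395 to 1724 RPKM in the wild type (log2 fold change 0.032, SE 0.19, edgeR adjusted p = 0.946). Within a library, Itih4 stood at 0.295 to 0.390 of the Ambp level in the knockout and at 0.400 to 0.410 of it in the wild type. These ranges did not overlap, although the top of the knockout was close to the bottom of the wild type. The ratio was chosen after its values were seen and was not tested. How often other gene pairs separate in this way was not counted. The ratio of Itih4 to Itih2 did overlap, at 1.30 to 2.65 in the knockout and 1.39 to 1.56 in the wild type.

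**Figure D2:**
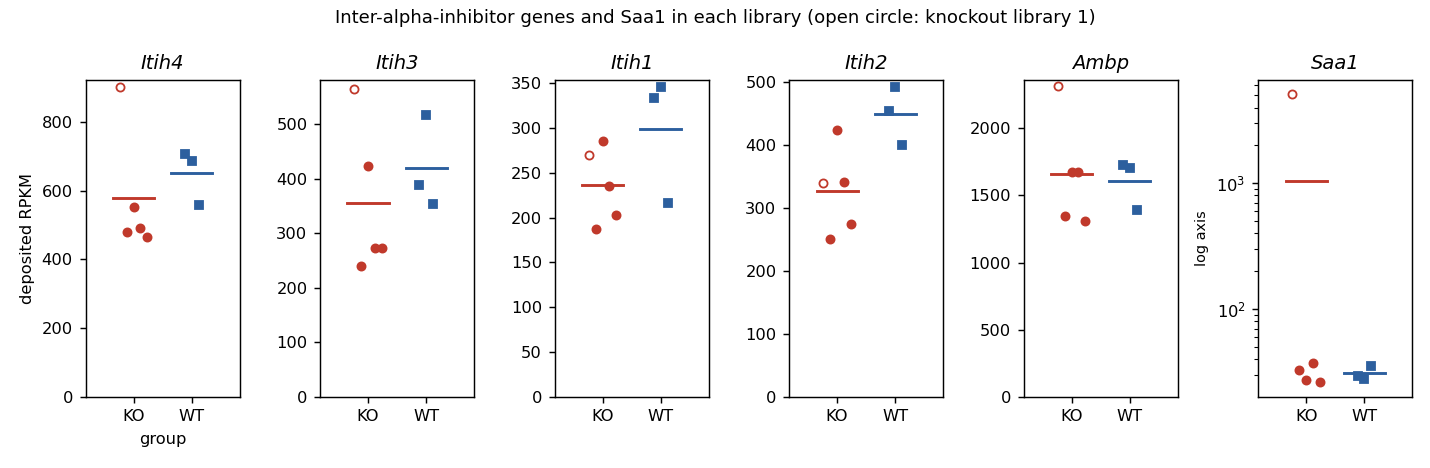
Deposited RPKM in each library for the 3 heavy chain genes beside Stab1, for Itih2 and Ambp on other chromosomes, and for Saa1 (log axis); points are libraries, lines are group means, open circles are knockout library 1. Knockout library 1 is the highest library for Itih4 (901 RPKM), Itih3 (566 RPKM), Ambp (2312 RPKM) and Saa1 (5109 RPKM) but not for Itih1 or Itih2.

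The summed level of 10 hepatocyte markers was 104494 to 163530.4 CPM in the knockout and 174856 to 186928 CPM in the wild type, with the lowest value in knockout library 1. Single markers did not share that direction: 4 of the 10 had positive fitted values, the median log2 fold change was -0.13, and edgeR called 0 of 10. Of the tested stellate cell markers 1 of 10 was positive (median -0.31), with sums of 414 to 653 CPM in the knockout and 652 to 705 CPM in the wild type, and of the sinusoidal endothelial markers 1 of 12 (median -0.26). All 10 tested erythroid markers (median 0.89) and all 4 tested neutrophil markers (median 0.81) were positive, with sums of 109.6 to 258 against 100.6 to 114 CPM and of 10.1 to 17.4 against 4.79 to 11.4 CPM. Of the Kupffer cell markers 9 of 12 were positive (median 0.23). Of the tested cholangiocyte markers 4 of 5 were positive (median 0.71), and of the adipose and mesothelial markers 3 of 4 (median 0.67). No marker in any of these lists was called by edgeR. In whole liver, fewer cells of a type and less RNA per cell cannot be told apart. The part of these marker differences in the heavy chain values was not tested.

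In order of RPKM over all 8 libraries, Itih4 (605 RPKM) was followed by Itih3 (379), Itih1 (259.5), Spcs1 (74.6), Nisch (20.6), Gnl3 (15.4), Pbrm1 (7.03), Glt8d1 (3.84), Nt5dc2 (3.47) and Nek4 (2.97). Itih4 exceeded Itih3, and Itih3 exceeded Itih1, in 8 of 8 libraries, although their ranges over libraries overlapped. Itih1 and Spcs1, Spcs1 and Nisch, Gnl3 and Pbrm1, and Pbrm1 and Glt8d1 did not overlap. The order was not settled between Nisch and Gnl3 (Nisch higher in 5 of 8 libraries), Glt8d1 and Nt5dc2 (6 of 8) or Nt5dc2 and Nek4 (6 of 8).

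Each neighbour was also compared with other tested genes for likeness over the libraries. Likeness was measured as the root mean square difference between log2 CPM profiles, each centred on its own mean over the 8 libraries. Among 9224 candidates the nearest profile to Itih4 was that of Rhbdf2, on chromosome 11, at 0.047, followed by Nup214 (0.059). The nearest of the other 9 neighbours was Nisch, at 0.15, and 284 candidates were nearer. For Itih3 the nearest were Gtf2ird1 (0.052) and Gcnt4 (0.090), for Itih1 Leprotl1 (0.048) and Ikbkb (0.063), for Spcs1 Casp8 (0.053) and Mrps9 (0.062), and for Gnl3 Polr2h (0.12) and Imp3 (0.14). For Nisch they were Casp9 (0.049) and Ndst2 (0.050), and for Pbrm1 Ensa (0.068) and Nek7 (0.073). For Nek4 they were Slc11a2 (0.095) and Cbs (0.11), for Glt8d1 Rars (0.090) and Rae1 (0.093), and for Nt5dc2 Zrsr1 (0.14) and Nme7 (0.16). For no neighbour was the nearest profile that of another neighbour. The candidates far outnumbered the other 9 neighbours, so this outcome was nearly fixed beforehand and says nothing about position. The candidates nearer than the nearest other neighbour ranged from 77 for Nek4 to 1828 for Glt8d1. These distances describe likeness over 8 libraries that share their depth and preparation, and carry no test. Among the 10, Itih4 and Nisch, at opposite ends of the block, were each other's nearest, at 0.15. So were the adjacent Itih1 and Nek4, at 0.17, and Spcs1 and Pbrm1, which are not adjacent, at 0.21. In the pair Itih1 and Nek4, 484 candidates were nearer to Itih1 and 77 nearer to Nek4.

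Farther out, the 15 genes of the table on each side of the block held no call either. Of these 30 flanking genes 24 passed the filter on low counts, and edgeR called 0 of 24 (0 at an unadjusted p below 0.05), as did DESeq2, beside the 0.227% called over the table by edgeR. Their median log2 fold change was 0.030. The largest fitted rise was that of Cacna1d, a calcium channel gene (0.53, SE 0.26, edgeR adjusted p = 0.380), and the largest fitted fall that of Lrtm1 (-0.68, SE 0.49, adjusted p = 0.511). Lrtm1 was at 3.91 and 3.95 RPKM in wild-type libraries 1 and 2 and at 0.755 RPKM in wild-type library 3, so the wild type spanned the knockout range of 0.762 to 2.89 RPKM. Smim4, the other gene inside the block, which encodes a small mitochondrial membrane protein, was at 15.2 to 32.5 RPKM in knockout libraries and at 11.98, 10.48 and 27.9 RPKM in wild-type libraries 1 to 3 (log2 fold change 0.61, SE 0.37, edgeR adjusted p = 0.452).

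**Figure D3:**
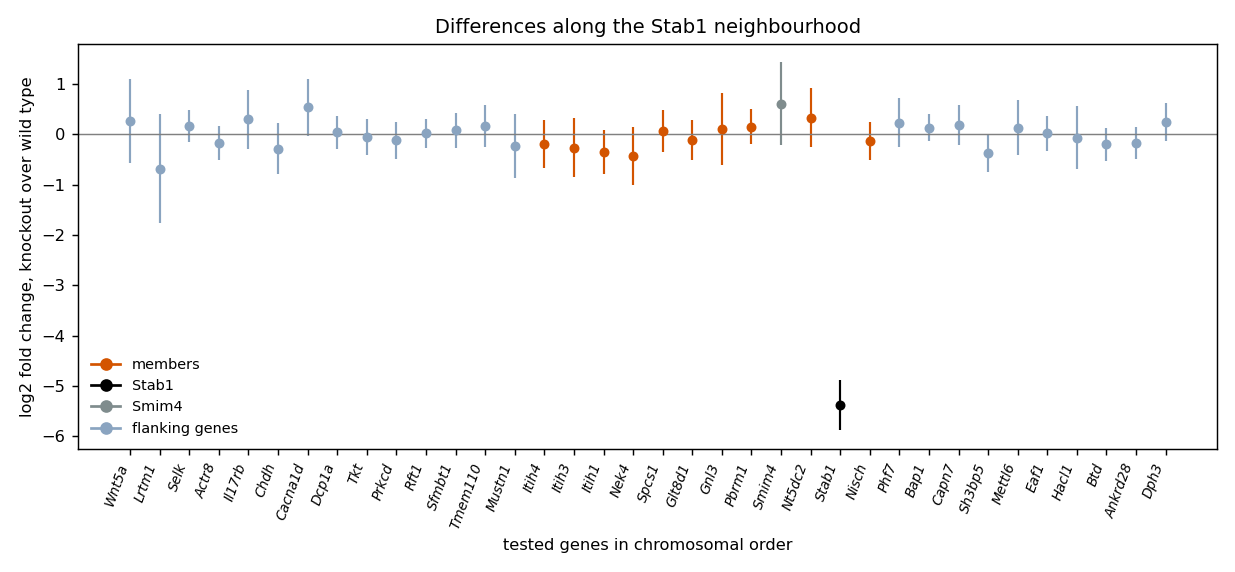
Log2 fold change of knockout over wild type, with 95% intervals, for Stab1, the 10 neighbours (orange), Smim4 and the 24 tested flanking genes in chromosomal order. Stab1 lies at -5.38, the neighbours lie between -0.43 and 0.33, and the interval of every neighbour includes 0.

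The share of a gene's length covered by reads was also described. It depends on read number and on the library, so partial coverage alone does not show an altered transcript. Reads covered 3.06% to 8.71% of Stab1 in the knockout and 73.1% to 90.6% in the wild type. Itih4, Itih3 and Itih1 were covered over 98.3% or more in every library, and Nisch over 94.2% or more. Across all libraries the coverage was 85.2% to 95.5% for Gnl3, 67.6% to 75.05% for Spcs1, 50.1% to 62.1% for Glt8d1 and 57.7% to 84.8% for Nt5dc2. Pbrm1 was covered over 70.2%, 59.7%, 79.3%, 64.3% and 73.2% in knockout libraries 1 to 5 and over 87.4%, 88.2% and 78.1% in wild-type libraries 1 to 3, although its RPKM was not lower in the knockout. Nek4 was covered over 49.6% to 70.2% in the knockout and 65.6% to 86.8% in the wild type. For both genes only knockout library 3 and wild-type library 3 crossed. Coverage did not separate the groups for any of the 10, while 9.52% of tested genes had coverage ranges that did not overlap. The libraries differed in this measure as a whole: the median over genes at 5 to 20 RPKM was 79.3%, 85.3%, 90.6%, 87.0% and 86.4% in knockout libraries 1 to 5 and 91.5%, 91.8% and 88.5% in wild-type libraries 1 to 3. The part of this in the coverage of Pbrm1 and Nek4 was not tested.

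**Figure D4:**
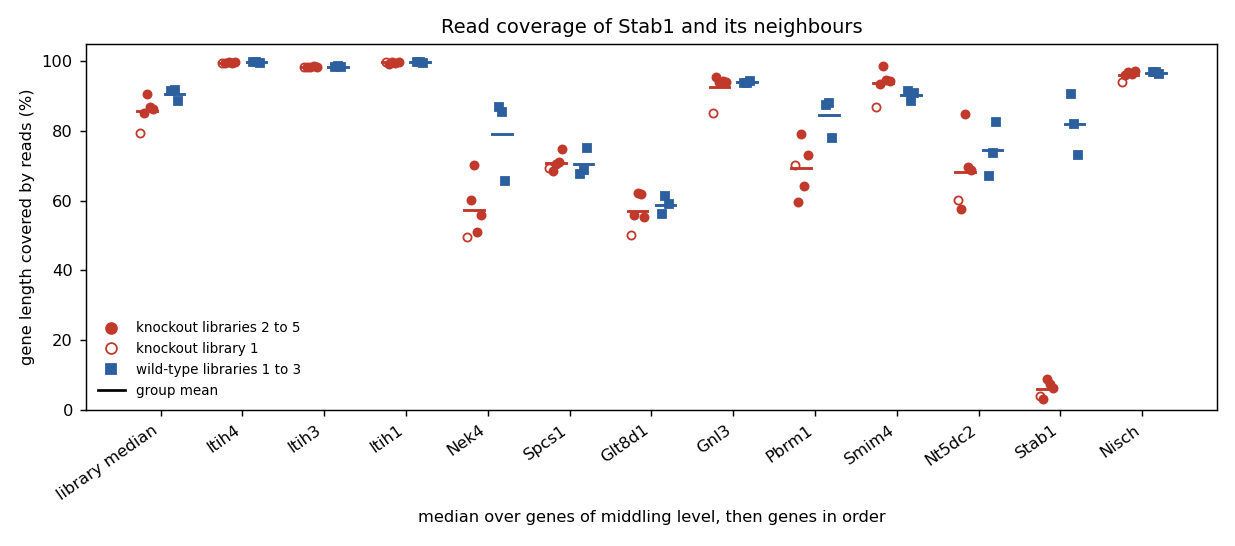
Percent of gene length covered by reads in each library for Stab1, the 10 neighbours and Smim4, beside the library median over genes at 5 to 20 RPKM; points are libraries and lines are group means. Stab1 is covered over at most 8.71% in knockout libraries, and the groups overlap at each neighbour, with Pbrm1 and Nek4 overlapping only through knockout library 3 and wild-type library 3.

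Partner genes of the neighbours were likewise not called by edgeR with all libraries. Over 9 lists of genes that share a complex, family or pathway with a neighbour, edgeR called 0 of 123 tested genes (14 at an unadjusted p below 0.05) and DESeq2 called 1, beside 0.227% and 1.11% of all tested genes. That gene was Apcs, serum amyloid P, at 230.4 ± 77.5 RPKM (SD, n = 3) in the wild type and 605 ± 142 RPKM (SD, n = 5) in the knockout (log2 fold change 1.38, SE 0.26, edgeR adjusted p = 0.110, DESeq2 adjusted p = 8.62e-05). Without knockout library 1 edgeR called Apcs as well (1.34, adjusted p = 0.0471). All 24 acute-phase genes were tested and had a median log2 fold change of 0.31, or -0.12 without knockout library 1.

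The other lists held no call by edgeR or by DESeq2 with all libraries. Of 22 SWI/SNF subunits, the partners of Pbrm1, 6 had positive and 16 negative values, with a median of -0.17, and the PBAF subunit Arid2 had -0.28 (SE 0.14, edgeR adjusted p = 0.391) and Smarcc2 -0.40 (adjusted p = 0.359). Of 23 genes of the signal peptidase and translocon, 7 were positive and 16 negative (median -0.052). Spcs2, Spcs3, Sec11a and Sec11c, the complex that holds Spcs1, ran from -0.19 to 0.0042, while the translocon subunit Sec61g had 0.85 (SE 0.23, edgeR adjusted p = 0.293). The list of 16 nucleolar GTPases and partners had a median of -0.089, with Lsg1 at -0.38 (adjusted p = 0.366), and 7 NIMA-related kinases a median of -0.048, with Nek2 at -0.69 (adjusted p = 0.380). Among 12 partners of nischarin (median -0.032) Itga5, its integrin chain, had -0.63 (SE 0.25, edgeR adjusted p = 0.342), and among 8 nucleotidases (median 0.042) Nt5dc3, of the same family as Nt5dc2, had -0.82 (SE 0.23, adjusted p = 0.293). The 6 tested relatives of Glt8d1 had a median of -0.23, with Gyg, glycogenin, at 0.27 (adjusted p = 0.420). Of 5 tested partners of the heavy chains (median 0.032), the hyaluronan receptor gene Cd44 had 0.74 (SE 0.24, edgeR adjusted p = 0.329).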

How the data were processed

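The authors deposited 1 gene table with 19464 rows and, per the file headers, a read count (uniquely mapped reads) for every gene and library, the percent of gene length covered (coverage percent) and an RPKM value. Per the labels' protocols, RNA came from a column kit and libraries from standard Illumina procedures. For aligner, counter, build, annotation and strandedness the entry is: not given in the sources used here. Deposited RPKM values were recomputed from counts, lengths and totals and matched within rounding. They served to compare levels between genes and were not tested. A dash was read as 0, and rows that share an identifier were summed, which left 19348 genes.

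Counts were tested in R 4.3.3 with edgeR 4.0.16: filterByExpr, TMM scaling, and the quasi-likelihood F test of knockout against wild type over 12338 genes with no covariate, with Benjamini-Hochberg adjustment and a call below 0.05. SE is the size of the log2 fold change divided by the square root of F. The 95% intervals use the t quantile at the fit's degrees of freedom. DESeq2 1.42.0, RLE and upper quartile scaling, no filter, a replicate block, a coverage covariate and leaving out each library were alternatives. The procedure was tested on simulated data. Every pair of libraries differed by more than sampling noise. CPM values use library totals times TMM factors, except that a floor of 3 reads is, per library total alone, 0.619 CPM in knockout library 1 and 0.278 to 0.335 CPM in the others, for counting error only.

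The 10 genes, the partner lists and the markers were chosen with earlier results of these data known. Named are Stab1, the 10 genes, the flanking genes called or with the largest fitted rise and fall, up to 3 members of each partner list with the smallest p, and the 2 nearest profiles of a gene (mean of at least 5 CPM). Other genes were named after their values were seen: Smim4, Ambp, Saa2, Orm2, Lcn2, Hamp, Crp, and the subunits Spcs2, Spcs3, Sec11a and Sec11c. RefSeq (GRCm38.p6) gave gene order and promoter sequences. Figures were drawn with matplotlib 3.10.9.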

Additional observations from a re-analysis of the deposited data

Results flagged for a closer look

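Among the knockout libraries, 22 sets of 5 values were examined. In 2 of these sets a single library lay far from the other 4, and in both it was knockout library 1. Chance gives this in about 1 of 20 sets, and the sets share their libraries. The Itih4 level of 901 RPKM in knockout library 1 lay far above the 464 to 552 RPKM of the other knockout libraries. The coverage of Gnl3 in knockout library 1, 85.2% of the gene's length, lay below the 94.0% to 95.5% of the others. That library held 4.85 M reads, the fewest, and 111 Gnl3 reads against 227 to 354 in the other knockout libraries.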

How the results depend on the processing

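Under all 17 alternatives 0 of the 10 neighbours and 0 of the flanking genes were called. Of 170 refitted values for the neighbours, 156 kept their direction and 14 turned, and the smallest adjusted p was 0.067, for Itih4. With 1 library left out Spcs1 ran from -0.084 to 0.32 and Gnl3 from -0.16 to 0.59, and both turned when knockout library 2 was left out, or the first or the second wild-type library. With coverage evenness as a covariate Spcs1 was at -0.012 and Gnl3 at -0.043. Among combinations chosen after seeing the data, the covariate without knockout library 1 gave -0.21 for Spcs1, -0.47 for Gnl3, -0.027 for Pbrm1, 0.050 for Itih1 and 0.041 for Nek4. The cause was not tested. Stab1 stayed called, from -5.56 to -5.15. Across all genes, 28 were called, and 137 by DESeq2, 14 with the covariate and 13 (without wild-type library 2) to 114 (without knockout library 1) with 1 library left out, with 15 and 93 on leaving out wild-type library 1 or 3. DESeq2 without knockout library 1 called 1083. Partner genes called were 0, or 1 by DESeq2, 7 by DESeq2 without knockout library 1, and 0 to 2 with 1 library left out.

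Replicate numbers 1 to 3 are shared by both groups, but same-numbered libraries did not deviate together (correlations of 0.12, -0.15 and -0.15 across genes). With the replicate number as a block 8 genes were called, with the block and without knockout library 1 there were 56, and 0 of the 10 neighbours in either. In the latter Gnl3 was at -0.14. Depth limits Nt5dc2, Nek4 and Glt8d1 most, with 30 to 136 reads per library.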
